A study of Mus musculus with 12 samples.

Results

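The 8 genes Brd2, Brd3, Hexim1, Cdk9, Ccnt1, Ccnt2, Larp7 and Mepce, which encode proteins of the BET family and of the elongation kinase P-TEFb with its regulators, were followed across the RNA-seq libraries. They were taken by gene symbol from a count table of 24421 symbols, with no threshold on their values. All 8 were found, and all 8 were among the 11468 genes that passed the filter on low counts.

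The macrophages (BMDMs) were primary cells grown out of bone marrow of C57BL/6 mice with the growth factor M-CSF (100 ng/mL for 5 days). They were then held for 4 hours with the BET inhibitor I-BET151 (iBET, 5.0 µM) or with its solvent DMSO (5% on the labels, which do not say whether of the medium or of a stock), and with ovalbumin (Ova) or ovalbumin bound by rabbit IgG as an immune complex (IC), which cross-links Fc gamma receptors. The labels have drug and stimulus given together and the study's text has the drug first, so their order is uncertain. The DMSO Ova, DMSO IC, iBET Ova and iBET IC groups had 3 libraries each, 1 from each of the mice named A, B and C. Beyond the strain the labels name no allele, the age of these mice was not given, and every group received ovalbumin.

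BET proteins carry paired bromodomains that bind acetylated lysines on histones, and iBET occupies that pocket. On chromatin they help to bring in P-TEFb, the kinase Cdk9 bound to a cyclin T, which phosphorylates RNA polymerase II and the factors that hold it paused near the start site. Much of the cell's P-TEFb is kept inactive in the 7SK particle, where a small nuclear RNA and the Hexim proteins block the kinase while Larp7 and Mepce protect the RNA. HEXIM1 mRNA is commonly used as a marker of exposure to BET inhibitors.

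Library totals ranged from 7549849 to 17387639 counts. In mouse A, the ribosomal precursor Rn45s made up 77.4% of the DMSO Ova library (95% Wilson interval 77.4% to 77.4%, counting error only), which left 1768133 counts on other genes. In the other 11 libraries it took between 1.41% and 7.83%, and the highest of these was the DMSO IC library of mouse A. In CPM (counts scaled to a common library size), computed outside Rn45s, the 7 macrophage markers (Csf1r, Adgre1, Cd68, Itgam, Lyz2, Mertk and Fcgr1) summed to between 6779 and 9120. With iBET, Mertk (log2 1.01, edgeR adjusted p = 0.000546) and Lyz2 (0.33, 0.00801) were called higher in the average over both stimulations and Fcgr1 (-0.60, 0.026) lower. The 4 measured neutrophil markers summed to between 6.22 and 41.8, the 5 B and T cell markers to at most 0.287, the 4 erythroid markers to at most 0.566 and the 4 stromal and endothelial markers to at most 2.07. The mast cell markers Cpa3, Mcpt8 and Ms4a2 were at 0 in every library. The 4 dendritic cell markers were near 0, at a sum between 0.287 and 1.05 with DMSO and between 0.519 and 1.56 with iBET. Of the dendritic, stromal and endothelial markers, Zbtb46 (log2 2.35 ± 0.50 SE, edgeR adjusted p = 0.00194, 78 counts in all) and Cdh5 (-1.63 ± 0.54, 0.0238, 85 counts) changed with the drug, and their part in the results was not tested.

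Brd2 and Hexim1 changed most of the 8 genes with the drug, so the bases before their RefSeq start sites are shown, 5′ to 3′ on the gene's strand in GRCm38.p6. The Brd2 stretch (250 bases) is chr17:34122608-34122857 on the minus strand, of which GENCODE places the last 27 bases inside the gene. The Hexim1 stretch (156 bases) is chr11:103116075-103116230 on the plus strand, and the 94 bases between it and the RefSeq start at 103116325, which GENCODE places inside the gene, are left off. Capitals mark letters that match a CCAAT box (CCAAT), a GC box (GGGCGG) or GCATGCGC, the core of the motif bound by the factor NRF1, on either strand. Positions are counted back from the RefSeq start.
Hexim1: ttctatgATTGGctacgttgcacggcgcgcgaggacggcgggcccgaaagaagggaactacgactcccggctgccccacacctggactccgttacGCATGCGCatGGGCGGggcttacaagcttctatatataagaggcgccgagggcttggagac
Brd2: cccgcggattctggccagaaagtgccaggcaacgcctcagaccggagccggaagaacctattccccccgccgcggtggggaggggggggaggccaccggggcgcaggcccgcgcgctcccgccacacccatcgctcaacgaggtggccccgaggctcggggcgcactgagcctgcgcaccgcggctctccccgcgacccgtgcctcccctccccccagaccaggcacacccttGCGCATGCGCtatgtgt

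Both stretches held the NRF1 core, Hexim1 at -155 and Brd2 at -17 and -15, where 2 overlapping matches lie on opposite strands. The Brd2 matches lie in the last 27 bases of the stretch, which GENCODE places inside the gene. The NRF1 core was searched for after the sequences were seen. Of 32851 RefSeq promoter stretches of 250 bases, 2.26% held it, and none of those of Brd3, Cdk9, Ccnt1, Ccnt2 and Larp7 did. A CCAAT box (33.8% of all stretches) lay at -243 of Hexim1 and also before Cdk9, Ccnt2 and Larp7. A GC box (32.7% of all stretches) lay at -145 of Hexim1 and before each of Brd3, Cdk9, Ccnt1, Ccnt2 and Larp7. Neither an E-box (CACGTG, 6.02% of all stretches) nor TATAAA (12.4%) was matched in any member. Only these exact letters were searched, so a looser TATA-like stretch, such as tatatataag in Hexim1, was not counted. RefSeq lists further Brd2 starts at 34121747 and 34119900, without the NRF1 core before them. A GC box lay at -96 of the start at 34121747. The table held 7 of the 8 genes, all but Mepce. These are matches of letters, not binding sites.

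The comparison of iBET with DMSO asks how transcripts of the drug's own target family and of the P-TEFb machinery responded to it. In Ova, 4 of the 8 genes were called by edgeR's quasi-likelihood test (Benjamini-Hochberg adjusted p under 0.05), and all 4 were higher with iBET: Brd2, Hexim1, Ccnt2 and Mepce. The same test called 31.3% of all genes, 17.1% higher and 14.2% lower (3593 genes, and 1310 without mouse B). In IC, 6 of the 8 were called, again all higher, as Cdk9 and Ccnt1 joined them, against 34.8% of all genes (19.0% higher and 15.8% lower; 3987 genes, and 1769 without mouse B). In the average over both stimulations, which rests on all 12 libraries, 7 were called, 6 higher and Larp7 lower, against 48.6% of all genes (26.0% higher and 22.6% lower). Over the 8 genes the log2 fold change had a median of 0.58 in Ova, 0.60 in IC and 0.57 in the average, and that of all genes tested was 0.02, -0.00 and 0.00. In bulk RNA, fewer cells of a type and less RNA per cell cannot be told apart.

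**Figure D1:**
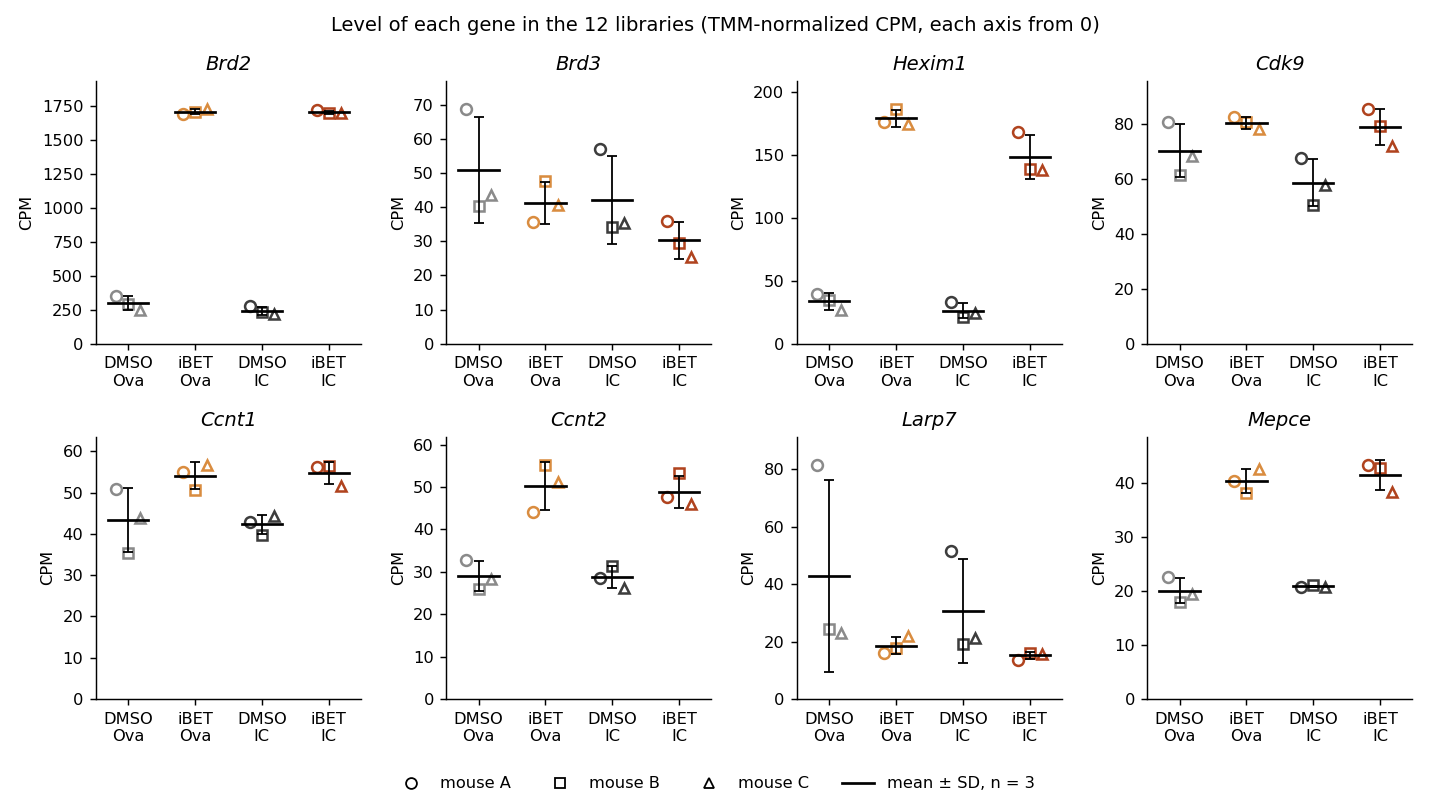
Level of each gene in CPM (counts scaled to the TMM-normalized library size; vertical axes from 0) in the 4 groups, with 1 symbol per library by mouse and the mean ± SD (n = 3). Brd2 sits between 1692 and 1727 CPM in the 6 iBET libraries and between 219.6 and 348.7 in the 6 DMSO libraries, and Larp7 is far higher in the DMSO libraries of mouse A than of mice B and C.

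Brd2, a BET protein, had the highest level per length of the 8 transcripts and rose most of them. Its level with DMSO was 348.7, 293.5 and 247.3 CPM in Ova and 275.8, 231.0 and 219.6 CPM in IC (mice A, B and C). With iBET it was 1692, 1703 and 1727 CPM in Ova and 1718, 1702 and 1696 CPM in IC. The drug arms were far apart, and the 6 iBET libraries were close to one level. The fold change was 5.77 in Ova (log2 2.53 ± 0.13 SE, edgeR adjusted p = 1.96e-07) and 7.04 in IC (log2 2.82 ± 0.13, edgeR adjusted p = 8.12e-08). By the size of its change Brd2 stood at place 123 of 11468 genes in Ova and at place 89 in IC. Brd2 is annotated in mm10 at chr17:34112023-34122634 on the minus strand, and 360 bases (4.6%) of its exons lie opposite exons of H2-DMa, an MHC class II chaperone gene, and 405 bases opposite CR974462.3. Whether the authors counted by strand was not stated, so reads of overlapping genes cannot be told apart. H2-DMa had 686 counts over all libraries and was not called in the averaged comparison (log2 0.30, edgeR adjusted p = 0.111).

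Brd3, its paralog, was not called in any comparison with the drug. Levels with DMSO were 68.8, 40.5 and 43.6 CPM in Ova and 57.1, 34.1 and 35.4 CPM in IC. With iBET they were 35.6, 47.8 and 40.7 CPM in Ova and 36.1, 29.5 and 25.4 CPM in IC. The groups overlapped in both stimulations, and the highest values were the DMSO libraries of mouse A. The log2 fold change was -0.26 ± 0.24 SE in Ova (95% interval -0.80 to 0.27, edgeR adjusted p = 0.454) and -0.47 ± 0.24 in IC (-1.0 to 0.05, edgeR adjusted p = 0.15). Without mouse A the Ova value was 0.05, so its sign rests on that mouse.

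Hexim1, which holds P-TEFb inactive on the 7SK RNA, rose by a factor close to that of Brd2. It was at 39.5, 34.6 and 26.4 CPM with DMSO and 175.9, 186.2 and 174.3 CPM with iBET in Ova, and at 32.9, 21.3 and 24.4 CPM and 168.3, 138.5 and 137.8 CPM in IC. No iBET library came near a DMSO library. The fold change was 5.44 in Ova (log2 2.44 ± 0.18 SE, edgeR adjusted p = 1.88e-06) and 5.64 in IC (log2 2.50 ± 0.17, edgeR adjusted p = 1.12e-06). Hexim1 is a gene of 1 exon at chr11:103116231-103119725 on the plus strand. Its neighbour Acbd4, 4030 bases before it, had a log2 fold change of 1.25 in Ova (edgeR adjusted p = 0.00262) and 0.43 in IC (edgeR adjusted p = 0.181). Hexim2, the paralog that can replace Hexim1 in the 7SK particle, begins 12703 bases beyond it and fell by 1.23 on the log2 scale in the average (SE 0.36, edgeR adjusted p = 0.0123), with a mean of only 9.25 counts per library.

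Cdk9, the kinase itself, passed the test in IC and in the average, at a small size. With DMSO it was at 80.6, 61.5 and 68.3 CPM in Ova and 67.4, 50.3 and 57.8 CPM in IC. With iBET it was at 82.3, 80.7 and 78.1 CPM in Ova and 85.3, 79.2 and 71.9 CPM in IC. The groups overlapped in Ova and did not in IC, where the lowest iBET library was above the highest DMSO library. Its log2 fold change was 0.21 ± 0.13 SE in Ova (95% interval -0.07 to 0.49, edgeR adjusted p = 0.235) and 0.43 ± 0.13 in IC (edgeR adjusted p = 0.0187). In the average it was 0.32 ± 0.09 (edgeR adjusted p = 0.0103).

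Ccnt1 and Ccnt2 encode the cyclins T1 and T2, which pair with Cdk9 in place of each other. Ccnt1 was at 50.8, 35.4 and 43.8 CPM with DMSO and 55.0, 50.5 and 56.7 CPM with iBET in Ova, and at 42.8, 39.7 and 44.3 CPM and 56.1, 56.5 and 51.7 CPM in IC. The Ova groups overlapped narrowly, as the DMSO library of mouse A lay above the iBET library of mouse B, and the IC groups did not overlap. Its log2 fold change was 0.34 ± 0.12 SE in Ova (edgeR adjusted p = 0.0512, but 0.0282 in the fit blocked by mouse and 0.021 with mouse A's DMSO Ova library left out) and 0.37 ± 0.12 in IC (edgeR adjusted p = 0.03). Ccnt2 was at 32.9, 26.1 and 28.3 CPM with DMSO and 44.1, 55.3 and 51.1 CPM with iBET in Ova, and at 28.6, 31.5 and 26.2 CPM and 47.6, 53.2 and 46.0 CPM in IC. Every iBET library was above every DMSO library. Ccnt2 rose by 0.81 ± 0.13 (log2, SE) in Ova (edgeR adjusted p = 0.000477) and by 0.77 ± 0.12 in IC (edgeR adjusted p = 0.000479). Of Ccnt1 exons, 695 bases (7.59%) lie opposite the antisense gene 9330020H09Rik, which had 235 counts in all.

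Cdk9 and Ccnt1 lost their calls in some fits without 1 mouse or library, which rest on fewer libraries. The count of all genes called in IC also fell, from 3987 to 1769 without mouse B and 2497 without mouse C. Without mouse C the log2 values of Cdk9 and Ccnt1 in IC were larger than in the main fit (0.43 and 0.37). In IC, Cdk9 was not called without mouse B (log2 0.33, edgeR adjusted p = 0.204) or mouse C (log2 0.48, 0.0939), nor without the DMSO library of mouse B (0.0726) or the iBET library of mouse A (0.0751). Ccnt1 in IC was not called without mouse B (log2 0.31, edgeR adjusted p = 0.184) or mouse C (log2 0.45, 0.103), nor without the DMSO library of mouse A (0.0647) or B (0.0898) or the iBET library of mouse A (0.0847) or B (0.0853). The averaged Cdk9 call was lost without mouse B (log2 0.22, edgeR adjusted p = 0.173) or mouse C (log2 0.35, 0.0639), and that of Ccnt1 without mouse B (log2 0.28, 0.0707).

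Larp7 and Mepce, the stable protein partners of the 7SK RNA, moved in opposite directions. Larp7, which binds the 3′ end of the RNA, was at 81.7, 24.3 and 23.0 CPM with DMSO and 16.1, 17.8 and 21.9 CPM with iBET in Ova. In IC it was at 51.6, 19.0 and 21.4 CPM with DMSO and 13.7, 16.2 and 15.8 CPM with iBET. The groups did not overlap in either stimulation, but mice B and C were apart by little and the DMSO libraries of mouse A stood far above all others. Its log2 fold change was -1.10 ± 0.50 SE in Ova (edgeR adjusted p = 0.119) and -1.02 ± 0.48 in IC (edgeR adjusted p = 0.127), and it passed the test only in the average, at -1.06 ± 0.35 (edgeR adjusted p = 0.0258). Per mouse the averaged change was -2.12 in A, -0.34 in B and -0.25 in C. Without mouse A it was -0.32 (edgeR adjusted p = 0.0319), and with only its DMSO Ova library left out it was -0.72 (0.0294), when Larp7 was also called in IC (log2 -1.03, 0.0282). The call was lost without mouse B (log2 -1.35, 0.06), without the iBET Ova library (log2 -1.01, 0.0557), the DMSO IC library (log2 -0.78, 0.0767) or the iBET IC library (log2 -1.02, 0.0588) of mouse A, and without a filter on low counts (0.0705). The 2 high libraries also had the highest shares of Rn45s (77.4% and 7.83%). With Rn45s removed from the table, the averaged Larp7 value was -1.07 (edgeR adjusted p = 0.0221).

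Mepce, which methylates the 5′ end of the 7SK RNA, rose. It was at 22.6, 18.0 and 19.5 CPM with DMSO and 40.3, 38.0 and 42.5 CPM with iBET in Ova, and at 20.7, 21.0 and 20.8 CPM and 43.3, 42.7 and 38.2 CPM in IC. The DMSO and iBET libraries did not overlap. The fold change was 2.05 in Ova (log2 1.04 ± 0.11 SE, edgeR adjusted p = 3.1e-05) and 1.99 in IC (log2 0.99 ± 0.11, edgeR adjusted p = 2.65e-05). Brd2, Hexim1, Ccnt2 and Mepce were called higher with iBET, in Ova, in IC and in the average, under every alternative run, with any 1 library or mouse left out among them.

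**Figure D2:**
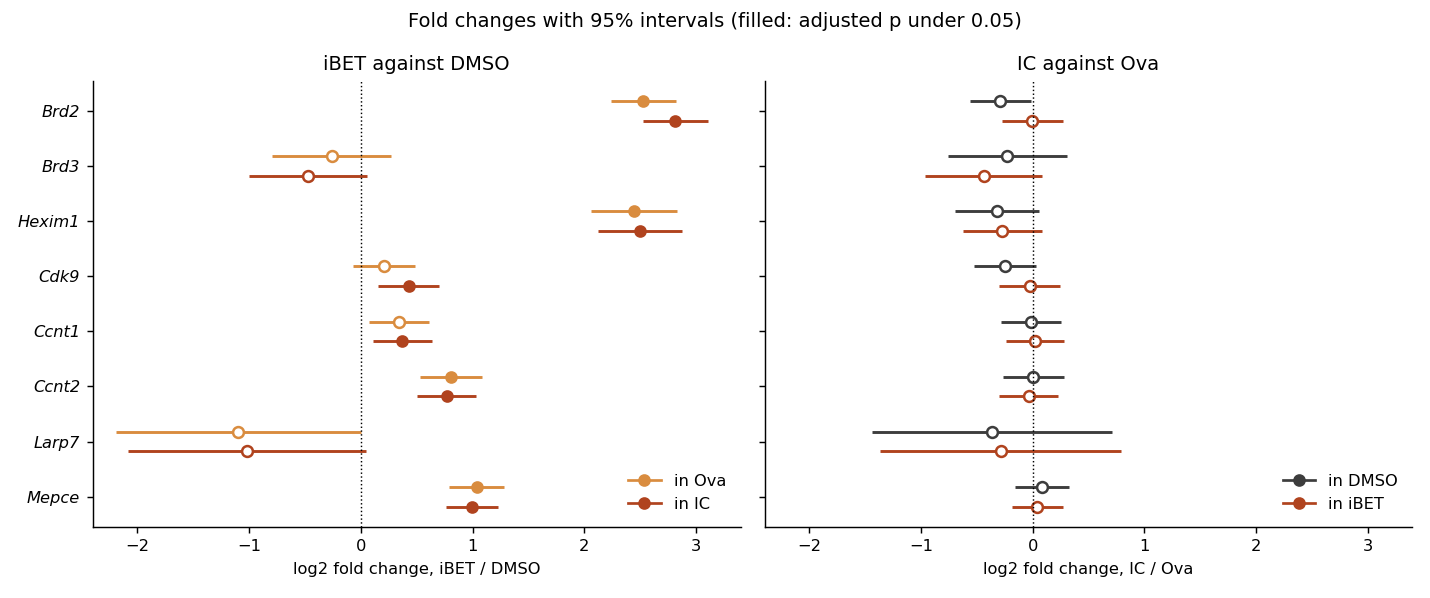
Log2 fold change (horizontal axis) with its 95% interval for each gene, for iBET against DMSO in Ova and in IC (left) and for IC against Ova in DMSO and in iBET (right), with filled points for an edgeR adjusted p under 0.05. Brd2 and Hexim1 lie between 2.44 and 2.82 on the left, and no gene passes the test on the right.

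Levels can be compared between genes only per length, so CPM was divided by the kilobases of exon in the annotation. In DMSO Ova the order was Brd2 (37.9 ± 6.49 CPM per kb, SD, n = 3), Larp7 (18.2 ± 14.2), Cdk9 (15.2 ± 2.10), Hexim1 (9.59 ± 1.89), Brd3 (6.95 ± 2.12), Mepce (5.64 ± 0.659), Ccnt1 (4.73 ± 0.843) and Ccnt2 (2.35 ± 0.281). Of these neighbours, Brd2 and Larp7, Larp7 and Cdk9, Hexim1 and Brd3, Brd3 and Mepce, and Mepce and Ccnt1 overlapped within 1 SD. In iBET Ova it was Brd2 (218.2 ± 2.28), Hexim1 (51.2 ± 1.84), Cdk9 (17.4 ± 0.460), Mepce (11.3 ± 0.631), Larp7 (7.85 ± 1.27), Ccnt1 (5.91 ± 0.352), Brd3 (5.64 ± 0.833) and Ccnt2 (4.06 ± 0.455), and only Ccnt1 and Brd3 overlapped. In IC the order was the same, except that with DMSO Mepce (5.86 ± 0.0459) and Brd3 (5.75 ± 1.77) changed places within 1 SD. Hexim1 thus went from below Cdk9 to above it, and Mepce from below Larp7 to above it.

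The same pairs, with Brd2 and Brd3 and the cyclins, were compared between the drug arms as the log2 ratio of their CPM within each library, which library size scarcely affects. Length was not divided out of these ratios, so their shift between the arms can be read, but neither their size nor their sign. Log2 Hexim1 over Cdk9 lay between -1.36 and -0.83 in the 6 DMSO libraries and between 0.81 and 1.2 in the 6 iBET libraries. Its mean was -1.12 ± 0.19 (SD, n = 6) with DMSO and 1.03 ± 0.15 with iBET, a shift of 2.15. Log2 Brd2 over Brd3 went from 2.56 ± 0.23 to 5.60 ± 0.32 (SD, n = 6 each), a shift of 3.04. Log2 Ccnt1 over Ccnt2 went from 0.56 ± 0.15 to 0.14 ± 0.15, a shift of -0.42 toward cyclin T2. Log2 Larp7 over Mepce went from 0.62 ± 0.78 to -1.28 ± 0.24, a shift of -1.90, which was -1.32 without mouse A. In each of the 4 ratios the DMSO and iBET libraries did not overlap within a stimulation. A two-sided exact permutation test that exchanged drug labels within each stimulation gave p = 0.005 for each ratio (Benjamini-Hochberg 0.005 over the 4), the smallest p that its 400 assignments allow. With labels exchanged only within a mouse and stimulation, the exact p was 0.03125, also the smallest possible. Both tests treat the Ova and IC libraries of a mouse as separate units, though only 3 mice were used. In 1 stimulation alone, 3 against 3 libraries cannot give a p below 0.1. The ratios recombine the levels described above, of genes chosen with earlier results known, so these tests give no separate support. How often other pairs of genes part in this way was not tested.

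**Figure D3:**
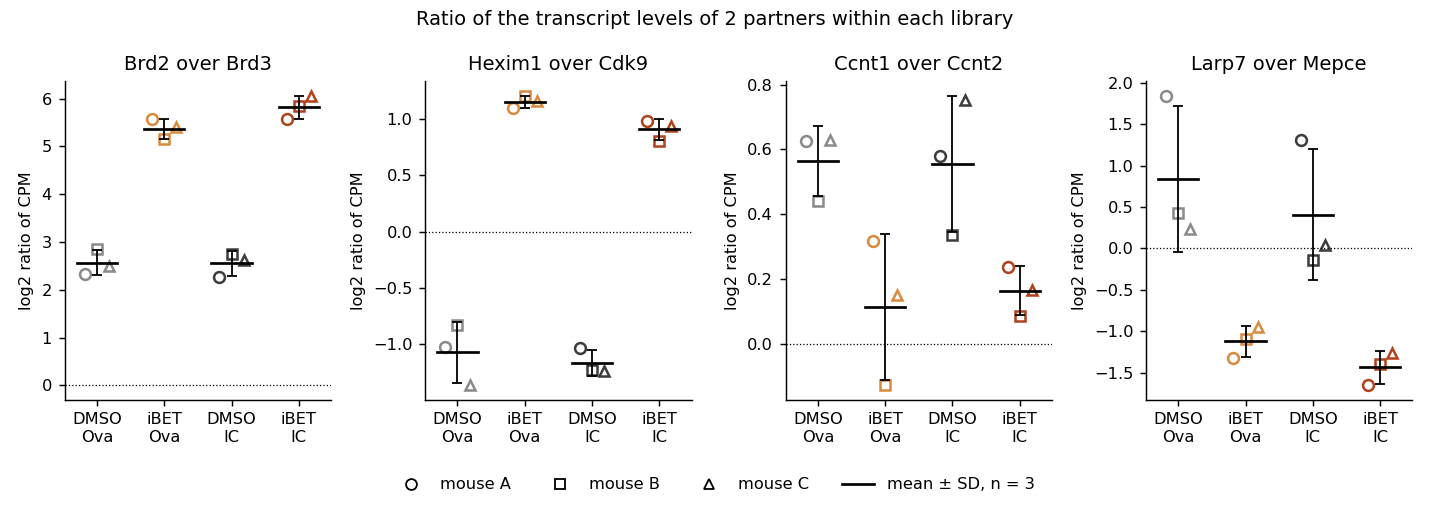
Log2 ratio of the CPM of paired transcripts in each library (vertical axis), by group, with 1 symbol per library by mouse and the mean ± SD (n = 3). Log2 Hexim1 over Cdk9 moves from between -1.36 and -0.83 with DMSO to between 0.81 and 1.2 with iBET.

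The comparison of IC with Ova asks whether Fc gamma receptor engagement changed the same transcripts, and it uses the same libraries as the drug comparison. None of the 8 was called, in DMSO (1.22% of all genes called), in iBET (0.349%) or in the average over both (2.95%). These backgrounds moved with the mice: the 140, 40 and 338 genes called became 0, 0 and 6 without mouse B and 159, 305 and 882 without mouse A. At an unadjusted p under 0.05 edgeR counted 1 of the 8 in DMSO (Brd2), 0 in iBET and 1 in the average (Hexim1), beside 1341, 860 and 1757 of all 11468 genes, and DESeq2 called none in any of them. With DMSO the Brd2 transcript was lower with IC in 3 of 3 mice (log2 -0.29 ± 0.13 SE, edgeR adjusted p = 0.397). Hexim1 was lower with IC in 3 of 3 mice in each arm, with an averaged log2 fold change of -0.30 ± 0.12 (95% interval -0.55 to -0.04, edgeR adjusted p = 0.244). With iBET the 3 Hexim1 libraries in IC were all below the 3 in Ova. In 5 of the 8 genes (Brd2, Cdk9, Ccnt1, Ccnt2 and Mepce) the interval of the averaged IC change lay within 0.34 of 0 on the log2 scale, whereas that of Larp7 reached from -1.09 to 0.43. The bound of 0.34 was read off these intervals, and the share of all genes within it was not counted.

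Leaving out mouse A changed this picture for Brd3 and Hexim1. Without it, Brd3 was called lower with IC in iBET (log2 -0.66, edgeR adjusted p = 0.0191) and in the average (log2 -0.47, 0.00887), and Hexim1 in the average (log2 -0.38, 0.0257), in fits that also called more of all genes, 305 in place of 40 in iBET and 882 in place of 338 in the average. Per mouse the change of Brd3 with IC in iBET was 0.02 in A, -0.69 in B and -0.68 in C. With 1 surrogate variable in the model Hexim1 was called in the average (log2 -0.26, edgeR adjusted p = 0.0382).

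The interaction compares the IC response in iBET with that in DMSO, which is also the drug response in IC against that in Ova. No gene was called in it by edgeR (0% of 11468), with 292 at an unadjusted p under 0.05 and 4 called by DESeq2, none of them among the 8. None of the 8 had an unadjusted p under 0.05. The largest value was that of Brd2, 0.29 ± 0.18 (log2, SE; 95% interval -0.10 to 0.67), positive in 3 of 3 mice. For Hexim1 it was 0.05 (-0.46 to 0.57) and for Mepce -0.04 (-0.38 to 0.29). A p that misses the threshold does not show that the responses were alike, and the intervals still hold a difference of 1.6 on the log2 scale for Larp7.

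**Figure D4:**
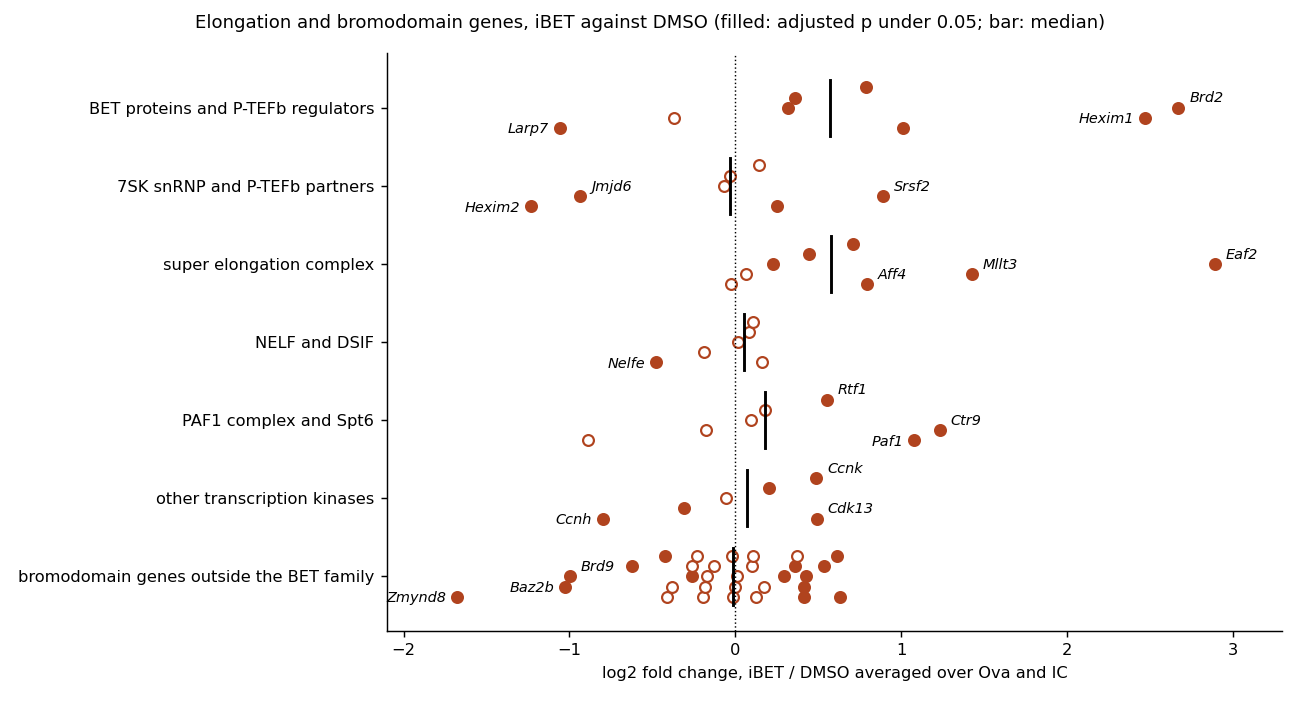
Log2 fold change of iBET against DMSO averaged over Ova and IC (horizontal axis) for the 8 genes and for 6 lists of related genes, 1 point per gene tested, filled for an edgeR adjusted p under 0.05, with a bar at the list's median. Up to 3 called genes per list are named, and the super elongation complex has a median of 0.58 where the other lists lie between -0.03 and 0.18.

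Other genes of elongation control are given for the averaged drug comparison, in which 26.0% of all genes were called higher and 22.6% lower. Of 7 further partners of the 7SK particle or P-TEFb, 2 were called higher and 2 lower, with a median log2 fold change of -0.03. The splicing factor Srsf2, which can sit on the 7SK particle, rose by 0.89 ± 0.16 (SE, edgeR adjusted p = 0.000797), and the demethylase Jmjd6 fell by 0.93 ± 0.18 (edgeR adjusted p = 0.00113). Hexim2 was described above, and the fourth, named after its value was seen, was the phosphatase Ppm1a (log2 0.25, edgeR adjusted p = 0.013). The 7SK RNA itself was also on the list of 8, but its symbol Rn7sk was not in the count table, so its level is not known here.

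The super elongation complex binds P-TEFb and carries it to active genes. Of its 8 genes tested of 11, 6 were called higher and none lower, and the median log2 fold change was 0.58. Eaf2 went from 0.252 ± 0.174 CPM (SD, n = 6) with DMSO to 2.07 ± 0.762 CPM with iBET (log2 2.89 ± 0.38 SE, edgeR adjusted p = 4.66e-05), at 154 counts in all. The YEATS-domain reader Mllt3 rose from 5.12 ± 0.526 to 13.9 ± 2.79 CPM (log2 1.43 ± 0.12 SE, edgeR adjusted p = 1.5e-06). The scaffold Aff4 rose from 119.3 ± 13.4 to 206.8 ± 5.87 CPM (log2 0.80 ± 0.08 SE, edgeR adjusted p = 5.55e-06). In the averaged IC comparison, which called 2.95% of all genes, 2 of the 8 were called, both higher with IC. They were Ell2 (log2 0.39 ± 0.09 SE, edgeR adjusted p = 0.0273) and Eaf1 (log2 0.52 ± 0.10, 0.0157), both named after their values were seen. Neither was called with IC in DMSO alone (edgeR adjusted p = 0.158 and 0.113) or in iBET alone (0.371 and 0.284).

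Of the 6 subunits of the pausing factors NELF and DSIF, only Nelfe was called with the drug, and it fell by 0.48 ± 0.10 on the log2 scale (SE, edgeR adjusted p = 0.00142). The median of the 6 was 0.05. The PAF1 complex with Spt6 travels with elongating polymerase, and 3 of its 7 genes were called, all higher: Ctr9 (log2 1.23 ± 0.16 SE, edgeR adjusted p = 6.56e-05), Paf1 (1.08 ± 0.28, 0.00869) and Rtf1 (0.55 ± 0.19, 0.0329). Paf1 spread widely with DMSO (91.8 ± 45.3 CPM, SD, n = 6) and was not called in IC alone (edgeR adjusted p = 0.0808). Rtf1 was called in neither Ova (edgeR adjusted p = 0.124) nor IC (0.164) alone. Among 6 genes of the other kinases that act on the polymerase, 3 were called higher and 2 lower. Cdk13 and its cyclin Ccnk rose alike, by 0.49 ± 0.07 each (SE, edgeR adjusted p = 7.03e-05 and 9.16e-05), and Ccnh, the cyclin of Cdk7, was lower (log2 -0.80 ± 0.30, edgeR adjusted p = 0.0455). Ccnh also spread widely with DMSO, at 33.7 ± 19.5 CPM (SD, n = 6) beside 18.7 ± 3.76 CPM with iBET. It was called in neither Ova (edgeR adjusted p = 0.211) nor IC (0.14) alone.

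Among 31 bromodomain genes outside the BET family that were tested (of 33), 8 were called higher and 6 lower, and the median was -0.01. The 3 with the largest called change were all lower: the chromatin reader Zmynd8 (log2 -1.68 ± 0.09 SE, edgeR adjusted p = 3.11e-08), Baz2b (-1.03 ± 0.20, 0.00162) and Brd9, a subunit of a SWI/SNF complex (-0.998 ± 0.28, 0.0115). None of the 31 had a rise as large as that of Brd2.

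The genes most like Brd2 in pattern, by Pearson's r of log2 CPM over the 12 libraries among 9428 genes with a mean count of at least 50, were Sat1 (r = 0.998), which encodes the rate-limiting enzyme of polyamine breakdown, Usp32 (0.994) and Pik3r1 (0.994). Sat1 had log2 fold changes with iBET of 2.54 ± 0.13 (SE) in Ova and 2.88 ± 0.13 in IC, beside 2.53 and 2.82 for Brd2. Usp32 and Pik3r1 shared the pattern at a smaller size, 0.87 and 1.03 in Ova. For Hexim1 the closest were Brd2 itself (0.993), Stau1 (0.992) and Efcab14 (0.992). These values describe libraries that fall into separate drug arms, so they are given without a test.

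Around the group means the members also varied together, to a degree that differed between pairs, which describes the same 12 libraries and their 3 mice. How other pairs of genes varied in this way was not compared. The correlation of deviations from the group mean ran from 0.083 for Hexim1 and Ccnt2 to 0.892 for Brd2 and Larp7. It was 0.855 for Brd2 and Hexim1, 0.822 for Brd3 and Larp7, and 0.877 for Brd3 and Cdk9. It was 0.220 for Cdk9 and Ccnt2, and 0.274 for Hexim1 and Mepce. Mouse A was above the group mean, on average over its 4 libraries, by 0.43 for Larp7, 0.25 for Brd3, 0.19 for Hexim1 and 0.14 for Cdk9 on the log2 CPM scale. For Ccnt2 it was at -0.01 and for Mepce at 0.06. These means hide wide ranges over the libraries of mouse A, from -0.20 to 1.19 for Larp7 and from -0.21 to 0.48 for Brd3. For Larp7 its DMSO libraries were the highest of their groups and its iBET libraries the lowest of theirs.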

How the data were processed

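Libraries from total RNA were sequenced for the authors by a service provider on a HiSeq instrument. Per the authors' notes, reads were trimmed with Trim Galore, aligned to mm10 with HISAT2 and assigned to gene symbols with featureCounts. The deposited table used here holds raw counts. Which annotation was used, and how strand and multiply aligned reads were handled, was not given in the sources used here. A second deposited table of normalized values was not used.

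With edgeR 4.0.16 under R 4.3.3, low genes were removed by filterByExpr (minimum count 10), libraries were scaled by TMM, and all 12 libraries entered a robust quasi-likelihood fit with 1 term per group, from which 7 contrasts were taken. P-values were adjusted by Benjamini-Hochberg over the 11468 genes tested. SE is the absolute log2 fold change over the square root of F. Ratios used log2 CPM with a prior count of 2 and an exact permutation test. The code was tested on simulated data. Gene positions and exon lengths came from GENCODE vM21 (GRCm38), and promoter stretches, with motif positions counted back from the start site, from RefSeq. The mm10 build of the files is the same assembly.

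The 8 genes and the gene lists were chosen with earlier results of these data known. Named genes were the 8 members, the 3 called genes with the largest averaged change in each list, the 3 genes closest in pattern to Brd2 and Hexim1, and genes that overlap or adjoin them. Alternatives were DESeq2 1.42.0, its size factors, other filters, 1 surrogate variable (sva 3.50.0), removal of Rn45s, a threshold of 0.01, the compared groups alone, mouse as a block, and omission of each library and each mouse.

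The labels give each library's mouse, so libraries are paired by animal. Deviations from group means correlated by a median of 0.263 over 18 same-mouse pairs (-0.0725 to 0.542) and by -0.134 over 36 different-mouse pairs (-0.499 to 0.271). The deviations within a group of 3 libraries sum to 0, so positive same-mouse values push the different-mouse values below 0. The different-mouse values are therefore not a separate observation. Group members came from separate mice.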

Additional observations from a re-analysis of the deposited data

How the results depend on the processing

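Of 568 alternative values for the drug contrasts of the 8 genes, 537 kept their direction and their side of the threshold, 22 lost the call, 8 gained it and 1 changed sign. The number of the 8 genes called in Ova was 7 with 1 surrogate variable, in place of 4, as Ccnt1, Cdk9 (log2 0.27, edgeR adjusted p = 0.0248) and Larp7 (log2 -0.62, 0.0277) were added, and DESeq2 also called Larp7 there (log2 -1.21, adjusted p = 0.0258). That model called 4732 of all genes in place of 3593. In the averaged drug comparison it was 4 to 7 over omitted libraries and mice, with 4 without mouse B, when the count over all genes fell from 5574 to 3529. In the averaged IC comparison it was 1 with 1 surrogate variable and 0 to 2 over omissions, and in IC against Ova with iBET 0 to 1. At a threshold of 0.01, Cdk9 and Ccnt1 in IC and Cdk9 and Larp7 in the average lost the call. Fits without a mouse rest on fewer libraries, and the cause of each change was not tested. With mouse as a block Ccnt1 was called in Ova, and the block changed no other call of the 8 genes. It raised the count over all genes from 140 to 315 for IC in DMSO and from 40 to 85 for IC in iBET. Over all genes the averaged IC comparison gave 338 calls, 658 with the block, 909 with 1 surrogate variable, 540 by DESeq2 and 144 at 0.01. IC in DMSO gave 504 with 1 surrogate variable, 268 by DESeq2, 48 at 0.01 and 5 with its groups fitted alone, IC in iBET gave 130, 113, 19 and 99, and the drug contrasts at 0.01 gave 2129 in Ova and 2496 in IC, in place of 3593 and 3987. Over omitted libraries and mice the counts over all genes ranged from 1310 to 3899 for the drug in Ova, 1769 to 4469 in IC and 3529 to 5614 in the average, and from 0 to 159 for IC in DMSO, 0 to 305 in iBET and 6 to 882 in the average. Each lowest count was without mouse B. Omission of 1 library alone moved IC in DMSO to 45 without mouse B's DMSO Ova library, and IC in iBET to 12 without its iBET Ova library.

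IC changes near 0 changed sign. For IC against Ova in DMSO, Ccnt1 was 0.00888 by DESeq2 and 0.00902 with 1 surrogate variable, and Ccnt2 was -0.0010 with its groups alone. In iBET, Brd2 was 0.00569 by DESeq2, 0.00527 with DESeq2 size factors, 0.00964 without a filter, 0.00455 with 10 counts in every library, 0.0463 with 1 surrogate variable, 0.0115 without Rn45s and 0.0107 with its groups alone, and Cdk9 was 0.0164 with 1 surrogate variable. Ccnt2 in the averaged IC comparison was 0.00275 with 1 surrogate variable. Over omitted libraries and mice the log2 ranges that crossed 0 were as follows. With the drug in Ova, Brd3 ranged from -0.53 to 0.0462. With IC in DMSO, Ccnt1 ranged from -0.15 to 0.0939, Larp7 from -0.94 to 0.35, Ccnt2 from -0.14 to 0.0916 and Mepce from -0.00084 to 0.16. With IC in iBET, Brd2 ranged from -0.0071 to 0.012, Ccnt1 from -0.0527 to 0.0931, Ccnt2 from -0.12 to 0.0398, Cdk9 from -0.0891 to 0.0336 and Mepce from -0.0208 to 0.14. In the averaged IC comparison, Ccnt2 ranged from -0.0830 to 0.0395, Larp7 from -0.61 to 0.0337, Ccnt1 from -0.0799 to 0.0657 and Mepce from -0.0108 to 0.11. In the interaction, Hexim1 ranged from -0.0741 to 0.25, Ccnt1 from -0.0564 to 0.16, Larp7 from -0.63 to 0.66, Ccnt2 from -0.17 to 0.12, Mepce from -0.13 to 0.0585 and Brd3 from -0.41 to 0.0657. The shift of each log2 ratio from DMSO to iBET kept its sign. That of Brd2 over Brd3 ranged from 2.93 to 3.21 and that of Hexim1 over Cdk9 from 2.05 to 2.21. That of Ccnt1 over Ccnt2 ranged from -0.48 to -0.36 and that of Larp7 over Mepce from -2.22 to -1.32. Without 1 mouse the exact test of a ratio cannot give a p below 0.0556. Depth limited the DMSO Ova library of mouse A, in which the 8 genes had 44 to 679 counts.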
